A study of Mus musculus with 6 samples.

Results

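Autophagy and mitophagy genes were examined as a group of 10 genes, taken by symbol from the count table with earlier results of these data known: Sqstm1, Map1lc3a, Map1lc3b, Gabarapl1, Ulk1, Becn1, Tfeb, Lamp2, Pink1 and Fundc1. All 10 were found among the 38293 genes of the table, and all 10 were among the 14746 genes that passed the filter on low counts. RNA-seq compared hearts of 3 Zeb2 cKO mice with hearts of 3 Zeb2 fl/fl mice, which the labels call WT. Both groups were adult male mice on a backcrossed C57BL/6J background, both carried floxed Zeb2 alleles, and both had their left anterior descending coronary artery closed permanently 14 days before the tissue was taken. Zeb2 cKO mice also carried a Cre recombinase driven by the murine Myh6 promoter (αMHC-Cre), which limits the deletion of the transcription factor gene Zeb2 to cardiomyocytes. No hearts with Cre alone and no uninjured hearts enter this comparison. The labels place the tissue at the border of the infarct whereas the methods describe remote myocardium. The counts came from all cells of the tissue, so fewer cells of a type and less RNA per cell cannot be told apart.

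Autophagy encloses cytoplasm in a double membrane that fuses with the lysosome. The kinase ULK1 and the Beclin 1 complex start the membrane, ATG8 proteins of the LC3 and GABARAP branches are coupled to its lipids, and receptors such as p62 tie cargo to them. In mitophagy the cargo is a mitochondrion, marked by the kinase PINK1 or by receptors of its outer membrane such as FUNDC1. Cardiomyocytes, which do not divide and are filled with mitochondria, depend on this turnover, and it is known to be engaged by ischemia. Transcript levels do not measure autophagic flux, which was not part of these data.

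None of the 10 genes passed the test for a difference between the genotypes. By the quasi-likelihood test of edgeR, adjusted over all tested genes after Benjamini and Hochberg, 0 of 10 had an adjusted p under 0.05, as had 0% of all tested genes, and their adjusted p ran from 0.957 to 0.993. At an unadjusted p under 0.05 the count was 0 of 10, beside 280 of all genes (1.90%), and DESeq2 called 2 of all genes, neither of them a member. In 0 of 10 did the Zeb2 cKO libraries all lie on 1 side of the Zeb2 fl/fl libraries, beside 6.36% of all tested genes. The median log2 fold change of the 10 genes (Zeb2 cKO over Zeb2 fl/fl) was -0.013, and -0.00687 over all tested genes. Their median absolute log2 fold change was 0.081, against 0.151 over all tested genes. The 95% confidence interval lay within a change of 1 on the log2 scale in either direction for 8 of 10 genes, the exceptions being Lamp2 and Pink1, and for 73.9% of all tested genes.

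Levels are given as CPM, the count of a gene scaled by its library's size after TMM normalization. Zeb2, the targeted gene, did not separate the groups. In the order of the replicates it had 61.3, 116 and 71.9 CPM in Zeb2 fl/fl and 59.6, 72.6 and 66.5 CPM in Zeb2 cKO hearts. Its log2 fold change was -0.33 (adjusted p = 0.957, edgeR). The 116 CPM was that of Zeb2 fl/fl replicate 2, and the other 2 Zeb2 fl/fl hearts lay within the range of the Zeb2 cKO hearts. Total counts lay between 37.3 and 51.1 M per library, with 60.5 to 67% of them on mitochondrially encoded genes. Zeb2 fl/fl replicate 2 stood apart from the other 5 libraries. It was the highest or the lowest library for 69.8% of all tested genes, against 18.8 to 34.3% for each of the others. Summed over lists of cell type markers, it held 11854 CPM of 10 fibroblast genes, where the other 2 Zeb2 fl/fl libraries held 2103 and 2624 CPM and the Zeb2 cKO libraries 2029 to 2950 CPM. It held 800.4 CPM of 10 macrophage genes, where the others ranged from 201 to 278 CPM. Of 10 cardiomyocyte genes it held 33754 CPM, below the other Zeb2 fl/fl libraries at 60524 and 65558 CPM and the Zeb2 cKO libraries at 53983 to 65716 CPM. Endothelial genes summed to 537 to 776 CPM in Zeb2 fl/fl and 677 to 840.3 CPM in Zeb2 cKO hearts, pericyte and smooth muscle genes to 666 to 988 and 916 to 1011 CPM, and neutrophil and lymphocyte genes to 2.42 to 6.2 and 1.91 to 3.31 CPM. The only marker listed at 0 in any library was the lymphocyte gene Cd3e. The fold change of each of the 10 genes is therefore given with and without Zeb2 fl/fl replicate 2, and the part of these cell types in the results was not tested.

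Of the 10 genes, 8 had their highest or lowest level in Zeb2 fl/fl replicate 2, against that background of 69.8%. It was the lowest library for Map1lc3a, Ulk1, Becn1, Tfeb and Pink1, and the highest for Gabarapl1, Lamp2 and Fundc1. Sqstm1 and Map1lc3b had both extremes among the Zeb2 cKO libraries. Without that library the median absolute log2 fold change of the 10 genes was 0.029, and 0.101 over all tested genes.

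**Figure D1:**
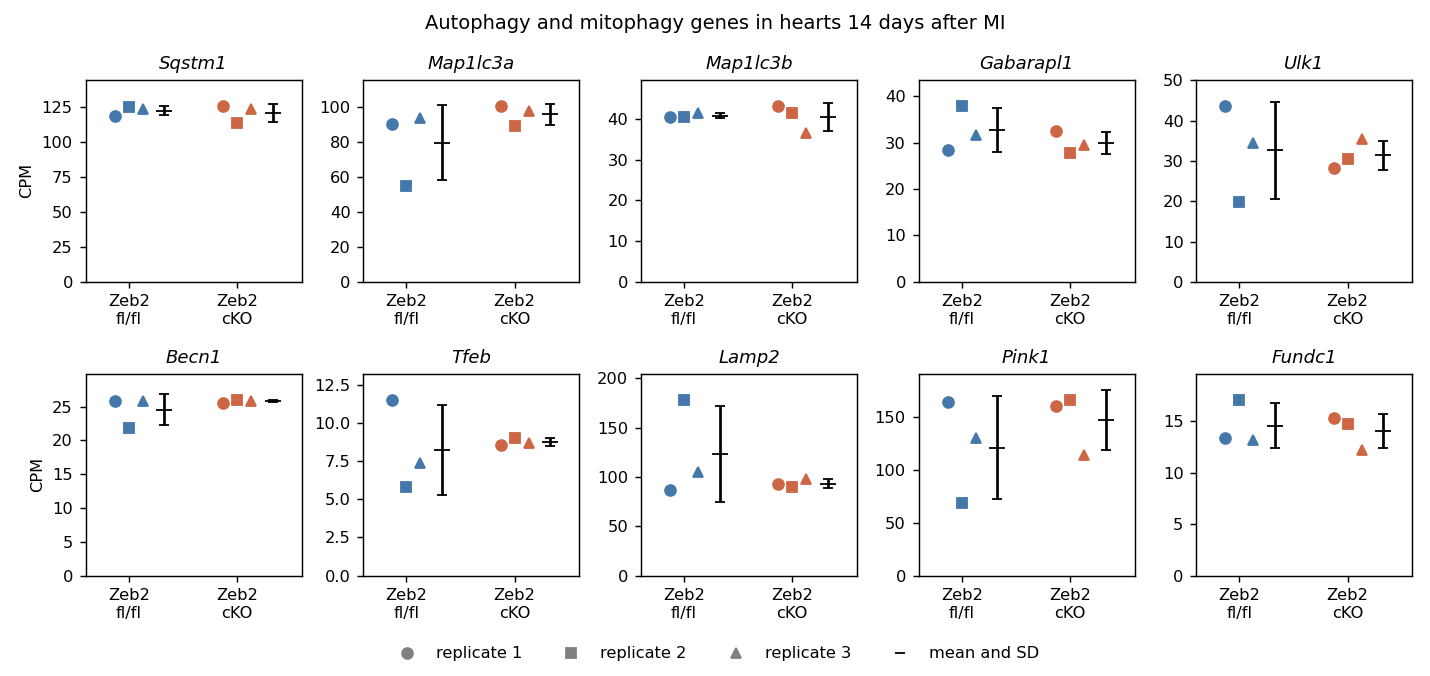
Level of each of the 10 genes in CPM (linear axis from 0) in the 3 Zeb2 fl/fl (blue) and 3 Zeb2 cKO (orange) libraries, with the mean and SD of each group. The symbols of the genotypes overlap in every panel, and Zeb2 fl/fl replicate 2 (blue square) lies far from its group for Lamp2 (178 CPM), Pink1 (68.7 CPM) and Map1lc3a (54.7 CPM).

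Autophagy starts with the kinase ULK1, and the Ulk1 gene (ENSMUSG00000029512) lies on the minus strand of chr5:110784488-110810097 of GRCm38. In the order of the replicates, which holds for every list of 3 values here, Ulk1 had 43.6, 19.8 and 34.4 CPM in Zeb2 fl/fl and 28.2, 30.5 and 35.4 CPM in Zeb2 cKO hearts. The Zeb2 cKO hearts thus lay inside the range of the Zeb2 fl/fl hearts, whose replicates 1 and 2 were the highest and the lowest of all. The means were 32.6 ± 12 and 31.3 ± 3.68 CPM (SD, n = 3 each), and the log2 fold change was -0.056 with a standard error of 0.277 (95% interval -0.714 to 0.603, adjusted p = 0.986 by edgeR). It was -0.31 without Zeb2 fl/fl replicate 2 (interval -0.648 to 0.023), the widest departure from 0 among the 10 genes in that fit, and its adjusted p was then 1. Its paralog Ulk2, named after its values were seen, ranged from 44.7 to 50.3 CPM across the 6 hearts. Levels are compared between genes only as RPKM, the CPM per kilobase of exon, and here Ulk1 had 5.02 ± 1.85 and 4.83 ± 0.567 RPKM (SD, n = 3 each) where Ulk2 had 8.12 ± 0.42 and 7.62 ± 0.156 RPKM.

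Becn1 (ENSMUSG00000035086, minus strand of chr11:101285952-101302286) encodes Beclin 1, a subunit of the class III phosphatidylinositol 3-kinase complex that nucleates the membrane. It had 25.9, 21.9 and 25.8 CPM in Zeb2 fl/fl and 25.6, 26.0 and 25.9 CPM in Zeb2 cKO hearts. Apart from the low Zeb2 fl/fl replicate 2, the other 5 hearts were almost at the same level. The log2 fold change was 0.078 (standard error 0.112, 95% interval -0.188 to 0.344), and 0.0052 without that library. The standard error was smaller than this in only 5.4% of all tested genes. Cntd1, on the opposite strand, covers 43.9% of the Becn1 exon bases and had at most 14 counts in a library, whereas Becn1 had at least 960.

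The ATG8 genes of the group are Map1lc3a, Map1lc3b and Gabarapl1, whose proteins are coupled to the lipids of the growing membrane and hold cargo receptors there. Map1lc3a (ENSMUSG00000027602, plus strand of chr2:155276297-155278073) had 90.1, 54.7 and 93.7 CPM in Zeb2 fl/fl and 100.4, 89.1 and 97.6 CPM in Zeb2 cKO hearts. Only Zeb2 fl/fl replicate 2 lay clearly apart, and the other 5 values overlapped between the genotypes. The means were 79.5 ± 21.5 and 95.7 ± 5.89 CPM (SD, n = 3 each), and the log2 fold change of 0.27 (standard error 0.218, 95% interval -0.248 to 0.784, adjusted p = 0.957 by edgeR) became 0.062 without that library. Map1lc3b (ENSMUSG00000031812, plus strand of chr8:121590361-121598760) had 40.5, 40.4 and 41.4 CPM in Zeb2 fl/fl and 43.1, 41.5 and 36.6 CPM in Zeb2 cKO hearts. The 3 Zeb2 fl/fl values fell between those of the Zeb2 cKO hearts, replicate 2 included, so this LC3 gene did not share the low value of Map1lc3a. Its log2 fold change was -0.014 (standard error 0.112, 95% interval -0.281 to 0.253), and -0.018 without Zeb2 fl/fl replicate 2. Stretches that make up 13.8% of the longest Map1lc3b transcript occur at 95% identity or more in transcripts of 85 other genes, so its count is uncertain to that extent.

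Gabarapl1 (ENSMUSG00000030161, plus strand of chr6:129533160-129542346), of the GABARAP branch, had 28.5, 37.9 and 31.7 CPM in Zeb2 fl/fl and 32.5, 27.8 and 29.5 CPM in Zeb2 cKO hearts. The highest value was that of Zeb2 fl/fl replicate 2, and the groups overlapped. The log2 fold change was -0.13 (standard error 0.142, 95% interval -0.464 to 0.21), and -0.0035 without it. A processed transcript on the opposite strand, 1700101I11Rik, covers 28.3% of the Gabarapl1 exon bases and reached 23 counts at most, where Gabarapl1 had at least 1072.

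Gabarap and Gabarapl2, the other measured genes of this family, were added after their values were seen. As shares of the summed RPKM of these 5 ATG8 genes, Map1lc3a made up 60.7, 38.6 and 58.2% in Zeb2 fl/fl and 58.6, 58.3 and 60.4% in Zeb2 cKO hearts. It was the leading gene in all but Zeb2 fl/fl replicate 2, where Gabarap held 39.8% against 22.7 to 25.5% in the other 5 hearts. Gabarapl1 held 11.3, 15.7 and 11.6% in Zeb2 fl/fl and 11.1, 10.7 and 10.7% in Zeb2 cKO hearts. Those shares did not overlap, at the smallest p that 3 against 3 can give (exact permutation test, two-sided p = 0.1), and the 2 lower Zeb2 fl/fl hearts lay close to the Zeb2 cKO hearts. Map1lc3b made up 3.55 to 4.48% and Gabarapl2 0.991 to 1.48% of the sum. All these shares rest on the merged length of all annotated exons, which is 7517 bases for Map1lc3b. Its principal transcript has 2532 bases, whereas the 2 lengths of Map1lc3a are close (1181 and 1112 bases). With principal transcripts the share of Map1lc3b would be higher, and shares with that length were not computed.

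Sqstm1 (ENSMUSG00000015837, minus strand of chr11:50199366-50210827) encodes p62, which binds ubiquitinated cargo and LC3 and is itself degraded by autophagy. It had 119, 125 and 124 CPM in Zeb2 fl/fl and 126, 114 and 124 CPM in Zeb2 cKO hearts. All 6 hearts lay close together, with no library apart. The means were 123 ± 3.33 and 122 ± 6.78 CPM (SD, n = 3 each), and the log2 fold change was -0.013 (standard error 0.122, 95% interval -0.301 to 0.276, adjusted p = 0.993 by edgeR), and 0.0025 without Zeb2 fl/fl replicate 2. Over the 6 libraries Sqstm1 had an SD of 0.0579 in log2 CPM, the lowest of the 10 genes. Mrnip covers 17.3% of its exon bases on the opposite strand, with 64 counts at most beside at least 4473 for Sqstm1.

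TFEB is a transcription factor that switches on lysosome and autophagy genes when nutrients are scarce, and its activity is set largely by where in the cell it sits. Tfeb (ENSMUSG00000023990, plus strand of chr17:47737030-47792419) had 11.5, 5.81 and 7.4 CPM in Zeb2 fl/fl and 8.53, 9.01 and 8.67 CPM in Zeb2 cKO hearts. The Zeb2 cKO hearts were nearly equal and sat between the extremes of the Zeb2 fl/fl hearts. Its log2 fold change was 0.084 (standard error 0.246, 95% interval -0.499 to 0.667, adjusted p = 0.97 by edgeR), and -0.11 without Zeb2 fl/fl replicate 2. Without Zeb2 fl/fl replicate 1, the highest library for Tfeb, it was 0.41, with an adjusted p of 0.596. The related factors Tfe3 and Mitf ranged from 7.7 to 10.8 CPM and from 30.4 to 51.6 CPM, with log2 fold changes of -0.007 and 0.26, and of 0.15 and 0.13 without Zeb2 fl/fl replicate 2; both were named after their values were seen.

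Lamp2 (ENSMUSG00000016534, minus strand of chrX:38401357-38456454) encodes a glycoprotein of the lysosome membrane that autophagosomes need to fuse and mature, and its loss causes the cardiomyopathy of Danon disease. It had 86.9, 178 and 105 CPM in Zeb2 fl/fl and 92.3, 89.5 and 98.0 CPM in Zeb2 cKO hearts. Zeb2 fl/fl replicate 2 was far above the other 5 hearts, which overlapped and of which the lowest was a Zeb2 fl/fl heart. The means were 123 ± 48.0 and 93.3 ± 4.33 CPM (SD, n = 3 each). The log2 fold change of -0.40 was the largest of the 10 genes in size (standard error 0.266, 95% interval -1.03 to 0.23, adjusted p = 0.957 by edgeR). It was -0.039 without Zeb2 fl/fl replicate 2 and -0.60 without replicate 1 of that group, with an adjusted p of 0.596 in the latter case. Per kilobase of exon Lamp2 had 0.172, 0.245 and 0.172 times the level of Lamp1, the other abundant membrane protein of the lysosome, in Zeb2 fl/fl and 0.143, 0.164 and 0.163 times in Zeb2 cKO hearts. This ratio, chosen after the values were seen, did not overlap between the groups (exact permutation test, two-sided p = 0.1, the smallest possible). Its size depends on the length used. Lamp2 has 9552 bases of merged exons and 3604 in its principal transcript, and Lamp1 has 2675 and 2229. With principal transcripts the ratio would be higher, by the same factor in every heart.

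PINK1 builds up on mitochondria that have lost their membrane potential and marks them for removal. Pink1 (ENSMUSG00000028756, minus strand of chr4:138313409-138326307) had 164, 68.7 and 130.2 CPM in Zeb2 fl/fl and 159.8, 166 and 114 CPM in Zeb2 cKO hearts. It varied most of the 10 genes, with an SD of 0.49 in log2 CPM over the 6 libraries, and Zeb2 fl/fl replicate 2 was lowest by a wide margin. The means were 121 ± 48.2 and 147 ± 28.0 CPM (SD, n = 3 each), and the log2 fold change was 0.28 (standard error 0.324, 95% interval -0.49 to 1.05, adjusted p = 0.957 by edgeR). Without Zeb2 fl/fl replicate 2 it was -0.0007 (95% interval -0.428 to 0.426).

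FUNDC1 is a receptor of the outer mitochondrial membrane that binds LC3 directly and is known from hypoxia. Fundc1 (ENSMUSG00000025040, minus strand of chrX:17556564-17572325) had 13.4, 17.1 and 13.2 CPM in Zeb2 fl/fl and 15.3, 14.8 and 12.2 CPM in Zeb2 cKO hearts. Zeb2 fl/fl replicate 2 was the highest and Zeb2 cKO replicate 3 the lowest, so the groups overlapped. The remaining Zeb2 fl/fl hearts lay below the remaining Zeb2 cKO hearts. The log2 fold change was -0.048 (standard error 0.155, 95% interval -0.415 to 0.319), and 0.084 without Zeb2 fl/fl replicate 2. Pink1 and Fundc1, both mitophagy genes, thus departed in opposite directions in that heart, by -0.90 and 0.26 from their means over the 6 libraries in log2 CPM.

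**Figure D2:**
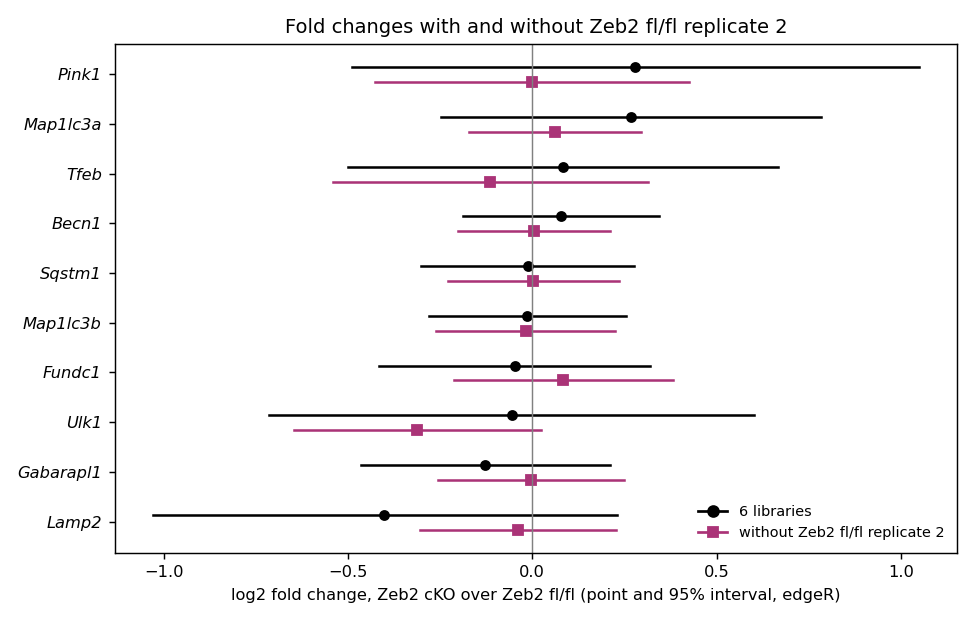
Log2 fold change (Zeb2 cKO over Zeb2 fl/fl, horizontal axis) of each gene with its 95% confidence interval from edgeR, for all 6 libraries (black circles) and without Zeb2 fl/fl replicate 2 (purple squares). Every interval spans 0, and the estimates of Pink1, Map1lc3a and Lamp2 move from 0.28, 0.27 and -0.40 to -0.0007, 0.062 and -0.039.

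Per kilobase of exon the 10 genes ranked in the same order in both genotypes by group mean. Map1lc3a led with 67.3 ± 18.2 RPKM in Zeb2 fl/fl and 81.0 ± 4.99 RPKM in Zeb2 cKO hearts (SD, n = 3 each). Pink1 followed with 45.2 ± 18.0 and 54.9 ± 10.5 RPKM, and then Sqstm1 with 36.5 ± 0.992 and 36.2 ± 2.02 RPKM. The ranges of Pink1 and Sqstm1 over the 6 hearts overlapped, and Pink1 was the higher in 5 of 6. Gabarapl1 (16.2 ± 2.39 and 14.9 ± 1.17 RPKM) and Lamp2 (12.9 ± 5.02 and 9.77 ± 0.454 RPKM) came next. Fundc1, Map1lc3b and Ulk1 had group means between 4.83 and 6.19 RPKM with overlapping ranges. Becn1 had 3.47 ± 0.324 and 3.66 ± 0.0296 RPKM, and the transcription factor gene Tfeb was last with 1.46 ± 0.523 and 1.54 ± 0.0433 RPKM. Between neighbours in this order the ranges over 6 hearts were separate at 3 places only, below Sqstm1, below Lamp2 and below Becn1. The length of a gene was that of all its annotated exons merged. With the length of the principal transcript instead, Sqstm1 passed Pink1 (59.9 and 56.3 RPKM, means over 6 hearts), Lamp2 passed Gabarapl1 (30.0 and 17.2 RPKM) and Map1lc3b passed Fundc1 (16 and 7.23 RPKM).

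The profile of each gene over the 6 libraries, as log2 CPM around its own mean, was compared with those of the other members and of 133 further genes of the pathway, 142 candidates for each gene. The distance is the root mean square difference over the 6 libraries on the log2 scale, and these matches are descriptions that share the same libraries. Sqstm1 was closest to Tax1bp1, another receptor for ubiquitinated cargo (0.0288), Becn1 to the lipid transfer gene Atg2b (0.0361) and Gabarapl1 to Scarb2 of the lysosome membrane (0.0374). Map1lc3b was closest to Fnip1, a folliculin partner (0.0519), and Map1lc3a to Atg9a, whose protein brings membrane to the autophagosome (0.0907). Lamp2 was closest to the mitophagy receptor gene Bnip3l (0.0817) and Fundc1 to its paralog Fundc2 (0.0841). Ulk1 and Tfeb had the same nearest gene, Atg2a (0.108 and 0.123), and Pink1 was nearest to the receptor gene Optn (0.145). Bnip3l had its highest and Optn its lowest level in Zeb2 fl/fl replicate 2, at 35.2 and 22.5 CPM where the other hearts ranged from 18.9 to 22.7 CPM and from 36.6 to 48.5 CPM.

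**Figure D3:**
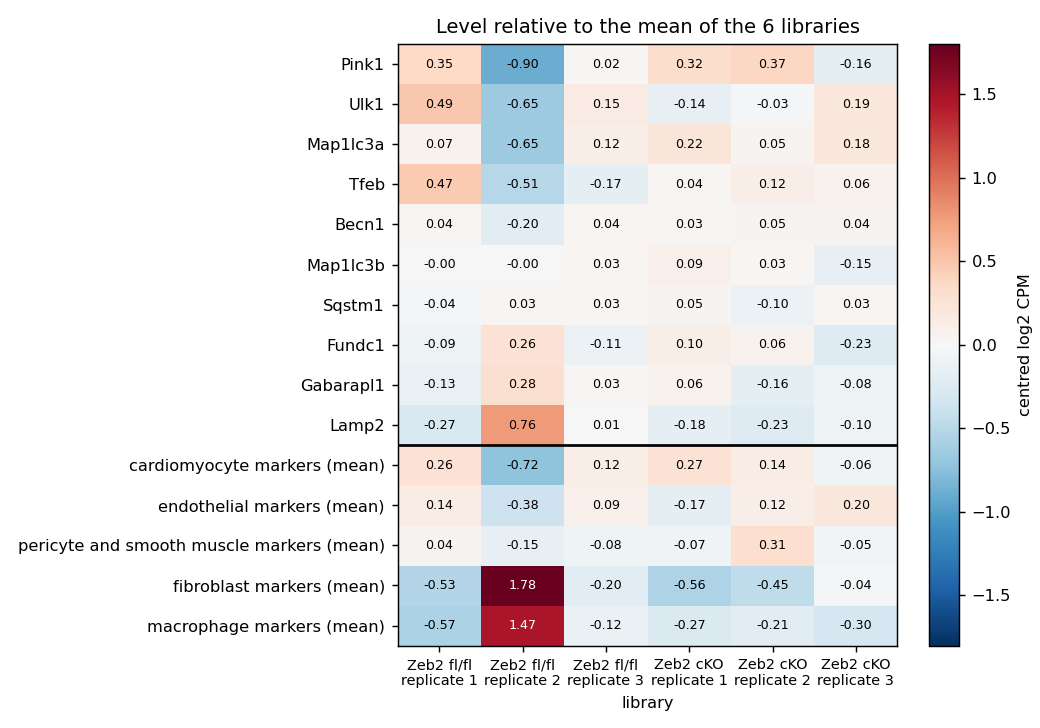
Heat map of log2 CPM around the mean of the 6 libraries (colour and printed value) for the 10 genes and, below the line, the mean of each of 5 marker lists. In Zeb2 fl/fl replicate 2 the genes run from Pink1 (-0.90) to Lamp2 (0.76), while cardiomyocyte markers are at -0.72, fibroblast markers at 1.78 and macrophage markers at 1.47.

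The other 133 genes of the pathway were grouped into 7 lists, all of them measured above the filter. Of these genes 0 passed an adjusted p of 0.05 (edgeR), 0 were higher and 2 were lower at an unadjusted p under 0.05, beside 1.90% of all tested genes. In 3 higher and 5 lower genes the groups did not overlap, a share near the 6.36% of all tested genes. The median log2 fold change over all 133 was 0.00449. Those 2 were Glb1, the lysosomal beta-galactosidase, and Ddit4, a stress-induced inhibitor of mTORC1. Glb1 had 7.83, 12.8 and 7.47 CPM in Zeb2 fl/fl and 4.38, 7.01 and 6.44 CPM in Zeb2 cKO hearts. Its groups did not overlap, and its log2 fold change was -0.66 (standard error 0.27), or -0.36 without Zeb2 fl/fl replicate 2. Ddit4 had 7.19, 4.15 and 4.69 CPM in Zeb2 fl/fl and 2.5, 2.74 and 4.37 CPM in Zeb2 cKO hearts. The highest Zeb2 cKO heart reached into the Zeb2 fl/fl range, and the log2 fold change was -0.73 (standard error 0.298), or -0.88 without that library. Neither passed the adjustment (adjusted p = 0.957 for both by edgeR).

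Upstream of Ulk1, the 26 genes of AMPK, mTORC1 and their regulators had a median log2 fold change of -0.014. Beside Ddit4 the smallest p were those of Rragc, a Rag GTPase that brings mTORC1 to the lysosome (-0.22, and -0.11 without Zeb2 fl/fl replicate 2), and Prkab2, an AMPK subunit (-0.20, and -0.20 without it). In both the groups did not overlap. The 20 genes of initiation and nucleation had a median of 0.021. Pik3r4, a subunit of the Beclin 1 complex, was at -0.20 and the phosphoinositide binder Wipi1 at -0.11. The lipid scramblase gene Tmem41b was at 0.17 with the groups apart. Pik3r4, Wipi1 and Tmem41b were at -0.17, -0.19 and 0.17 without Zeb2 fl/fl replicate 2. In the 13 genes of ATG8 conjugation the median was 0.051, with Atg5 at -0.20, Atg16l1 at 0.15 and Atg16l2 at 0.13, all parts of the machinery that attaches LC3 to lipid. Without Zeb2 fl/fl replicate 2 these 3 were at -0.015, -0.0093 and 0.026, so that Atg16l1 changed sign. None of these genes passed the adjusted threshold.

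The 11 cargo receptor genes beside Sqstm1 had a median log2 fold change of -0.057. Ccpg1, a receptor for turnover of the endoplasmic reticulum, was at -0.60, and its groups did not overlap. It was at 5.9 CPM in Zeb2 fl/fl replicate 2 and at 2.26 to 2.89 CPM in the other 5 hearts, and without that library its log2 fold change was -0.15. Tex264, of the same process, was at -0.17 and Optn at 0.28, and at -0.14 and 0.040 without it. The 19 mitophagy genes beside Pink1 and Fundc1 had a median of 0.029. Parl, whose protease cleaves PINK1 in healthy mitochondria, had 9.48, 8.36 and 8.96 CPM in Zeb2 fl/fl and 10.5, 9.89 and 9.96 CPM in Zeb2 cKO hearts, a log2 fold change of 0.18 that was 0.14 without Zeb2 fl/fl replicate 2. Its groups did not overlap, with an adjusted p of 0.957 (edgeR). Bnip3l was at -0.27 and the mitochondrial ubiquitin ligase gene Mul1 at 0.28, but at 0.036 and 0.044 without Zeb2 fl/fl replicate 2, with the sign of Bnip3l turned.

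Downstream, the 16 genes of fusion with the lysosome had a median log2 fold change of 0.0059. Plekhm1, an adaptor between Rab7 and the fusion machinery, was at -0.27 with the groups apart, the SNARE gene Stx7 at -0.14 and Vps41 at 0.096. Without Zeb2 fl/fl replicate 2 they were at -0.19, 0.025 and 0.13, and Stx7 thus changed sign. The 28 genes of the lysosome and the TFEB family had the lowest median, -0.087, and it was 0.041 without Zeb2 fl/fl replicate 2. In 14 of these 28 that library was the highest. Cd63, a tetraspanin of late endosomes, was at 8.93 CPM there and at 2.03 to 3.28 CPM in the other hearts. Its log2 fold change was -0.92 with all 6 libraries and -0.095 without that library. Mcoln1, a calcium channel of the lysosome, was at 5.63, 6.15 and 6.25 CPM against 6.83, 6.91 and 6.55 CPM in Zeb2 cKO hearts, and is named after its values were seen as the last of the 8 genes without overlap. Macrophage and fibroblast markers were highest in the same library, and their part in the lysosomal genes was not tested.

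**Figure D4:**
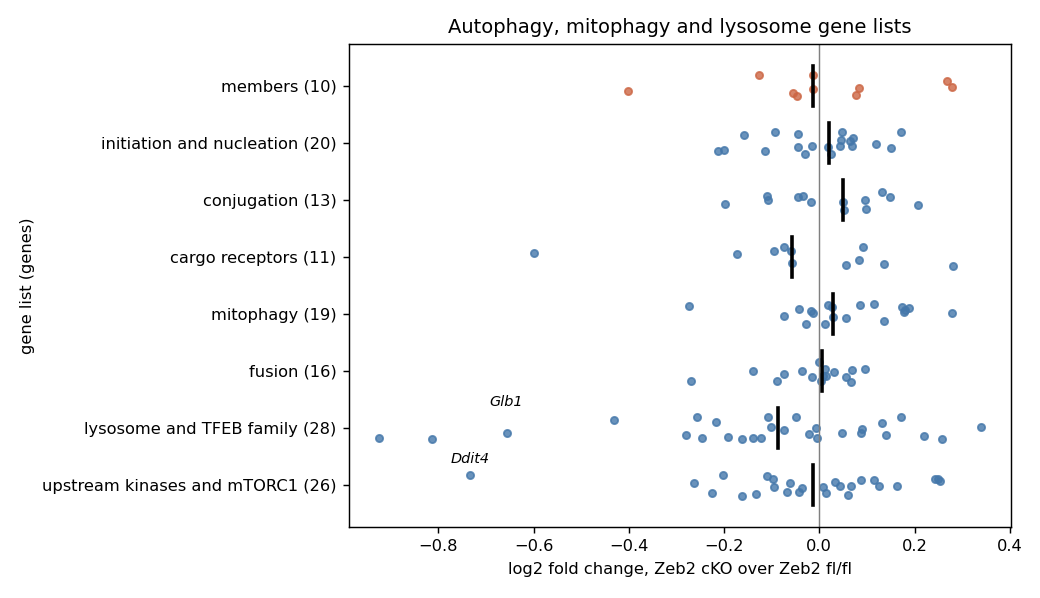
Log2 fold change (Zeb2 cKO over Zeb2 fl/fl, horizontal axis) of the 10 members (orange) and of 133 other genes in 7 lists (blue), 1 point a gene, with a black bar at the median of each row and the number of genes in brackets. The medians lie between -0.087 and 0.051, and Glb1 (-0.66) and Ddit4 (-0.73), the 2 genes with an unadjusted p under 0.05, are named.

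Zeb2 encodes a zinc finger factor that binds DNA at CACCT and prefers CACCTG, so the RefSeq promoter windows of the members (GRCm38.p6, 250 bases before to 50 after each annotated start) were searched for these letters on both strands. The reference table held 10 windows for 8 of the genes, 3 of them for Tfeb. Map1lc3a and Becn1 were not in it. CACCTG, which contains CACCT, occurred in 3 of 10 windows and in 20.2% of all 32851 windows, and CACCT in 6 of 10 and in 51.9%. CACGTG, the core of the element that TFEB binds, occurred in 0 of 10 windows and in 7.15% of all. The 3 windows with the longer motif are shown because they belong to a kinase, an ATG8 gene and the regulator of lysosomal genes, none of which passed the test between genotypes; each is given 5′ to 3′ on the strand of its gene, with CACCTG or its reverse complement CAGGTG in capitals.
Pink1, minus strand of chr4:138326490-138326519: caaactagctaaCAGGTGtaaagggcctgg
Map1lc3b, plus strand of chr8:121590426-121590455: cgcgccgcgagtCACCTGactcggctgcgg
Tfeb, plus strand of chr17:47785729-47785758, at the last of its 3 starts: acagcgaggggtCAGGTGgactcctgcagt
The motif began at -211 from the start in Pink1, at 1 in Map1lc3b and at -3 in Tfeb. A match of letters is a description of these windows and says nothing of binding in these hearts, where Pink1, Map1lc3b and Tfeb had log2 fold changes of 0.28, -0.014 and 0.084.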

How the data were processed

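The authors deposited raw, unnormalized counts per gene in 1 table. Per the methods they prepared stranded libraries from RNA depleted of ribosomal RNA, aligned the reads with STAR to GRCm38 and counted them on Gencode M4. The strand option, the treatment of multimapping reads and the STAR version were not given in the sources used here. Each column matched 1 labelled sample and 0 were left unmatched. Nothing says how the hearts were batched, and p-values weigh the genotype difference against the spread between these libraries, 1 from each mouse.

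The following was computed from the counts. Symbols, coordinates and lengths came from Gencode M21 by gene identifier. Counts were normalized by TMM and filtered by filterByExpr in edgeR 4.0.16 (R 4.3.3), and genotypes were compared with glmQLFit and glmQLFTest over all genes kept, with Benjamini-Hochberg adjustment at 0.05. The authors' DESeq was not used, and DESeq2 1.42.0 served as an alternative. CPM used TMM library sizes, and log2 CPM a prior count of 2. For single values an exact permutation test over libraries was run, two-sided, whose smallest p is 0.1. Near-identical stretches (at least 75 bases, 95% identity) were searched with BLAST 2.17.0. The steps were tested on simulated data. Each member had 255 counts or more in each library. Counting error was not separated from the spread between mice. Where values are very close, as for Becn1 in Zeb2 cKO hearts (SD 0.809% of the mean), it may not be small beside that spread.

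The members and all lists were chosen with earlier results of these data known. Named were the 10 members, the 3 genes of each list with the smallest unadjusted p and any other under 0.05, the closest profile of each member, and Zeb2; further genes are marked where they appear or overlap a member. Of the genes the rule names, 1 is counted in its list and is not reported here. Replicate numbers 1 to 3 occur in both groups but come from different mice, and they entered as pairs in 1 alternative only. Other alternatives changed the normalization, the filter, the test and the mitochondrially encoded genes, or left out each library.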

Additional observations from a re-analysis of the deposited data

How the results depend on the processing

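The count of genes with an adjusted p under 0.05 was 0 in every edgeR alternative, and DESeq2 called 2 higher genes. At an unadjusted p under 0.05 there were 280 genes, 600 without a filter on low counts and 122 to 1134 with 1 library left out. Of the members 0 had an unadjusted p under 0.05, and 0 to 2 with 1 library left out, the 2 being Lamp2 and Tfeb without Zeb2 fl/fl replicate 1. In the fold changes of members under alternatives, 98 of 110 kept their direction. Without the filter Sqstm1 was at 0.0066 and Map1lc3b at 0.0049. Libraries with the same replicate number showed little correlation of their deviations (0.0878, -0.137 and -0.0869), and so few values cannot exclude a pairing. With a replicate block Ulk1 was at 0.0112, and 247 genes had an unadjusted p under 0.05. Leaving out 1 library gave -0.0419 to 0.0352 for Sqstm1, -0.0637 to 0.052 for Map1lc3b, -0.31 to 0.21 for Ulk1, -0.11 to 0.41 for Tfeb, -0.0007 to 0.56 for Pink1 and -0.11 to 0.084 for Fundc1. It gave list medians of -0.0352 to 0.039 for conjugation, -0.0985 to 0.101 for cargo receptors, -0.0161 to 0.131 for mitophagy, -0.0835 to 0.0423 for the upstream kinases, -0.104 to 0.041 for the lysosome, -0.0122 to 0.028 for fusion and -0.0167 to 0.0246 for initiation, so each of the 7 medians changed sign. Zeb2 fl/fl replicate 2 alone moved Map1lc3a, Lamp2 and Pink1 to near 0, and the cause was not tested. The principal transcript as length, an alternative chosen after seeing the data, changed the order of levels.

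With 3 mice a group, the intervals of Lamp2, Pink1 and Ulk1 leave room for changes that those of Sqstm1, Map1lc3b and Becn1 do not. Tissue site, cell makeup and genotype cannot be told apart in bulk RNA, and protein, lipidated LC3 and flux were not measured in these counts.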

Other observations

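Levels of members were also set against the summed CPM of the 10 cardiomyocyte marker genes, a ratio chosen after the values were seen and given as a description. Per 1000 CPM of these markers, Pink1 had 2.5, 2.03 and 2.15 CPM in Zeb2 fl/fl and 2.43, 2.89 and 2.12 CPM in Zeb2 cKO hearts, so that Zeb2 fl/fl replicate 2 was lowest by a small margin. Map1lc3a had 1.37, 1.62 and 1.55 CPM per 1000 in Zeb2 fl/fl and 1.53, 1.55 and 1.81 CPM in Zeb2 cKO hearts, with Zeb2 fl/fl replicate 2 inside the range of the others. Ulk1 (0.665, 0.585 and 0.568 against 0.429, 0.531 and 0.655) and Tfeb (0.176, 0.172 and 0.122 against 0.13, 0.157 and 0.161) also had that heart inside the range of the others. Lamp2 did not, at 1.33, 5.26 and 1.74 CPM per 1000 in Zeb2 fl/fl and 1.41, 1.56 and 1.82 CPM in Zeb2 cKO hearts. Neither did Sqstm1, at 1.81, 3.69 and 2.06 against 1.92, 1.98 and 2.3. The high ratio of Sqstm1 in that heart reflects the low marker sum of 33754 CPM. Its own level there was 125 CPM, within the 114 to 126 CPM of the other hearts.

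The ratio of the LC3 genes Map1lc3a and Map1lc3b in RPKM, also chosen after the values were seen, was 14.1, 8.61 and 14.4 in Zeb2 fl/fl and 14.8, 13.7 and 17.0 in Zeb2 cKO hearts. Zeb2 fl/fl replicate 2 was the lowest, and the other 5 hearts overlapped between the genotypes (exact permutation test, two-sided p = 0.4). The size of this ratio rests on 7517 bases of merged exons for Map1lc3b. With its principal transcript of 2532 bases, and 1112 instead of 1181 bases for Map1lc3a, it would be lower by the same factor in every heart.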
